A study of Homo sapiens with 10 samples.

Results

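The genes described here were 10 AP-1 and immediate early genes: FOS, FOSB, FOSL1, FOSL2, JUN, JUNB, JUND, ATF3, EGR1 and IER2. They were listed by name and family, no measured value serving as a threshold, although earlier results of these data were known when the list was made. All 10 were found among the 20098 protein-coding genes placed on the autosomes and chromosome X. Of the series' 10 samples, all from the HEK293 line of human embryonic kidney cells, 2 were ZMYND8 ChIP-seq samples made with an antibody to the protein itself. Another 2 were FLAG-ZMYND8 samples, made with an antibody to the tag in Flp-In T-REx HEK293 cells in which 10 nM doxycycline induced overexpression of 3xFLAG-ZMYND8. The 4 ChIP-seq samples of the histone acetylations H3K14ac and H3K27ac and the 2 input samples were not analysed here. Chromatin was crosslinked and digested with MNase, an enzyme that cuts between nucleosomes. The growth labels name lines that stably carry 3xFLAG-ZMYND8 or its N228F mutant, and do not say which line gave the samples with the antibody to ZMYND8.

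ZMYND8 is a chromatin reader whose PHD finger, bromodomain and PWWP domain bind modified histone tails. Immediate early genes are transcribed within minutes of a growth factor, stress or depolarisation signal, from promoters whose factors are largely in place beforehand. AP-1 is a dimer of basic leucine zipper (bZIP) proteins: FOS proteins pair with JUN proteins, while JUN proteins can also pair with each other or with relatives such as ATF3. Serum response factor at CArG boxes and CREB at cyclic AMP response elements (CREs) are the best known regulators of these promoters.

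The values came from 1 peak list per target, so each value below is a description of that list, with no replicate error and no test. The ZMYND8 list held 15086 peaks and the FLAG-ZMYND8 list 63690. Depth was unknown, and the score column held 1 in every row, so peaks were sized by width. The narrowest peak was 151 bp for ZMYND8 and 167 bp for FLAG-ZMYND8, and 53.0% and 54.7% of the peaks had exactly that width. The lists differ in antibody, in the amount of ZMYND8 in the cells and in list length, and the parts these play cannot be told apart. Distances run from the gene start, the 5′ end of the gene in hg19, to a peak's midpoint. A peak was at the start when that distance was at most 3 kb. The exon, intron or intergenic place given for a peak is that of its midpoint, so other bases of the peak may lie elsewhere.

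The promoters of FOS, JUND, ATF3 and EGR1 are printed as examples of those that hold motifs searched for. Those of FOSB and JUNB, which hold TATAAA, are not printed. Each is the 250 bases of hg19 before the start of the canonical transcript, the 1 the annotation marks as representative. They are written 5′ to 3′ on the gene's strand, and capitals mark a CArG box, the CRE TGACGTCA, the AP-1 site TGANTCA or TATAAA, found on either strand.
FOS promoter (chr14:75745281-75745530, plus strand): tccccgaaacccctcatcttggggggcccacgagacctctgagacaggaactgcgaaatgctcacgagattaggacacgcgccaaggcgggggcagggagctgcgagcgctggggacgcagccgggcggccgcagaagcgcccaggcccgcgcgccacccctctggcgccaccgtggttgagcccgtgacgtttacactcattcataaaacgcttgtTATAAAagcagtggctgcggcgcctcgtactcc
JUND promoter (chr19:18392433-18392682, minus strand): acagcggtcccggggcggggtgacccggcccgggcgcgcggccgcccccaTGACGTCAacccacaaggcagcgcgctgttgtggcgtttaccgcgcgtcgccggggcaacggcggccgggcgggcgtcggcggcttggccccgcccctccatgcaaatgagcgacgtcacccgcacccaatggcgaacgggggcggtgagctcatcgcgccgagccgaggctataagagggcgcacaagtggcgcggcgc
ATF3 promoter (chr1:212781853-212782102, plus strand): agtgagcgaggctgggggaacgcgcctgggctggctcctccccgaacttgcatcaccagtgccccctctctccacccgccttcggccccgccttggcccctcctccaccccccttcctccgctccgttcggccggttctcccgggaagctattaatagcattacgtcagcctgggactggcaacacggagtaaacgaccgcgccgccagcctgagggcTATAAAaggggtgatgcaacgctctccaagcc
EGR1 promoter (chr5:137800918-137801167, plus strand): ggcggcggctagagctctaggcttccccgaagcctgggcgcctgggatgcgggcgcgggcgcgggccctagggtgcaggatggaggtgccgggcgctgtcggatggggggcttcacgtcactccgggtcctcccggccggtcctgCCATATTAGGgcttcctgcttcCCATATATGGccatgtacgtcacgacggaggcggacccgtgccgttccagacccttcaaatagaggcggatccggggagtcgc
EGR1 held 2 CArG boxes, which began 105 and 83 bases before the start. No other promoter of the 10 held one, and 1.13% of the 19819 promoters of this length did. JUND alone held a CRE, 200 bases before its start, beside 2.40% of promoters. TATAAA stood in 4 promoters, beginning 33 bases before the start in FOS, 30 in FOSB, 31 in JUNB and 32 in ATF3, beside 9.28% of promoters. The AP-1 site was in none of the 10 and in 4.70% of promoters. The 10 promoters had a GC content of 62.0% to 74.8%, with a median of 69.0% beside 63.2% over all promoters. These are matches of letters in a short window, not measured binding. A site outside the 250 bases, or with other letters, is not counted, so a promoter without a match may still have such sites.

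FLAG-ZMYND8 peaks lay at the start of all 10 genes, and of 58.1% of protein-coding genes. ZMYND8 peaks lay at 4 of the 10, JUNB, ATF3, EGR1 and IER2, close to the share of 34.1% among protein-coding genes. The same 4 genes had peaks of both lists, beside 29.4% of genes. The peaks of the lists overlapped, by at least 1 bp, at JUNB and ATF3, beside 20.4% of genes. FOS, FOSB, FOSL1, FOSL2, JUN and JUND thus had FLAG-ZMYND8 peaks at the start and no ZMYND8 peak.

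JUNB, ATF3, EGR1 and IER2 were the listed genes with a ZMYND8 peak at the start, and 2 sequences of ZMYND8 peaks are shown. They are the central 200 bases of the JUNB peak and another ATF3 peak, near the canonical start described with that gene. The ATF3 peak shown lies 44107 bp downstream of the gene start, so it was not counted as at the start. Capitals would mark the same motifs, and none was found in the 2 sequences.
JUNB, centre of the ZMYND8 peak at the start (chr19:12903142-12903341, plus strand): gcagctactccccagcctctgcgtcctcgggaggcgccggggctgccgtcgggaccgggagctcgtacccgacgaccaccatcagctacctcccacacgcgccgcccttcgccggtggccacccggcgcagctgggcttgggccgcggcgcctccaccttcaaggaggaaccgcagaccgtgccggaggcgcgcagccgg
ATF3, ZMYND8 peak at the canonical start (chr1:212782708-212782858, plus strand): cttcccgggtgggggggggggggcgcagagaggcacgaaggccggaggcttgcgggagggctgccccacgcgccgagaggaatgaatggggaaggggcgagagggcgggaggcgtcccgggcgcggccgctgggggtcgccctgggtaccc
The short ZMYND8 peaks upstream of the ATF3 and EGR1 gene starts consist of sequence that recurs across the genome. Of the stretches of 20 bases in the ATF3 peak, 2.27% occurred once in the genome, and the median stretch had 1393 copies. In the EGR1 peak 5.30% occurred once, and the median was 418 copies. The JUNB peak and the IER2 peak, by contrast, had a median of 1 copy, with 99.0% and 100% of stretches occurring once. A median of over 100 copies was seen in 9.52% of the ZMYND8 peaks of the minimum width and in 26.1% of such FLAG-ZMYND8 peaks. Without peaks over that threshold, a setting chosen after the data were seen, ZMYND8 peaks remained at the start of 2 of the 10 genes, JUNB and IER2, beside 33.7% of protein-coding genes. Of the 37 FLAG-ZMYND8 peaks at the starts, 34 had a median of 1 copy and 1, at ATF3, had over 100. How reads that map to several places were handled is not given in the sources used here, and its part in these peaks was not tested.

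**Figure D1:**
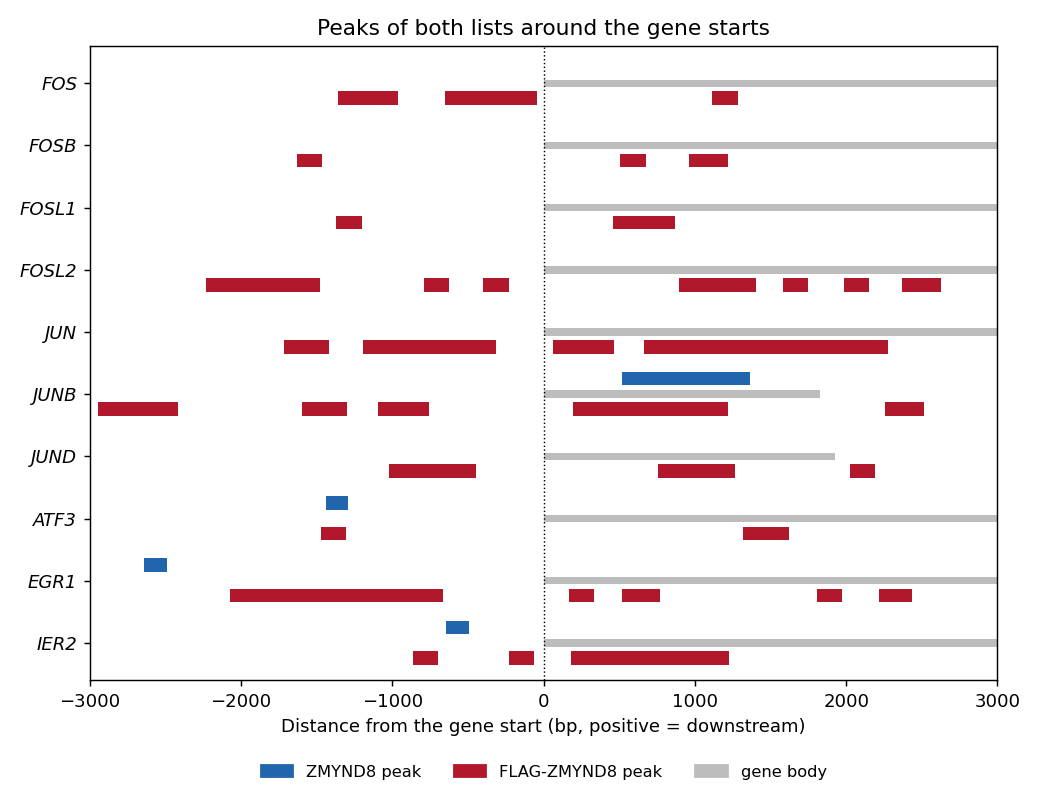
Peaks of ZMYND8 (blue, above each gene line) and FLAG-ZMYND8 (red, below) within 3000 bp of the 10 gene starts, drawn to scale, with the distance from the start in bp on the x axis and the gene body in grey. Red bars lie at each of the 10 genes, blue bars at 4, and no bar of either colour crosses the dotted line of a gene start.

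In the map of peaks around the starts, none of the 10 gene start positions lay under a peak of either list. Over all protein-coding genes, 12.6% of starts lay under a FLAG-ZMYND8 peak and 8.81% under a ZMYND8 peak. With 10 genes, a count of 0 is near these shares, but they take in genes with no peak near the start. The shares among genes with a peak, a closer comparison, were higher. Among genes with a FLAG-ZMYND8 peak within 3 kb, 21.8% had the start base under such a peak. Among genes with a ZMYND8 peak there, as 4 of the 10 had, the share was 25.8%. The canonical start of ATF3 did lie under a FLAG-ZMYND8 peak. The FLAG-ZMYND8 edges nearest to the start on its 2 sides left a gap of 243 bp at IER2, the narrowest, and 2628 bp at ATF3, the widest. Of the 37 FLAG-ZMYND8 peaks, 17 lay upstream and 20 downstream. Coding exons held 6, untranslated exons 6, noncoding exons of other genes 2, introns 17 and intergenic sequence 6. Their widths ran from 167 to 1616 bp, with a median of 265 bp, and 37.8% had the minimum width, beside 36.0% of the list's 19185 peaks at coding gene starts.

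Measured as bases under peaks within 3 kb, the FLAG-ZMYND8 list covered a median of 1317 bp at the 10 genes, beside 167 bp over all protein-coding genes and 501 bp over those with any coverage. The median number of peaks was 3.00, beside 1.00 over all genes. The genes were far from alike. JUN was at the top with 3194 bp, followed by JUNB with 2448 bp, EGR1 with 2212 bp and FOSL2 with 2194 bp. IER2 with 1381 bp, JUND with 1253 bp and FOS with 1176 bp came next, and FOSB with 599 bp, FOSL1 with 577 bp and ATF3 with 466 bp were lowest. Only 0.199% of protein-coding genes had as many bases as JUN, 0.592% as many as JUNB, and 31.4% as many as ATF3. The ZMYND8 peaks at the same starts covered 852 bp at JUNB and 151 bp each at ATF3, EGR1 and IER2.

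**Figure D2:**
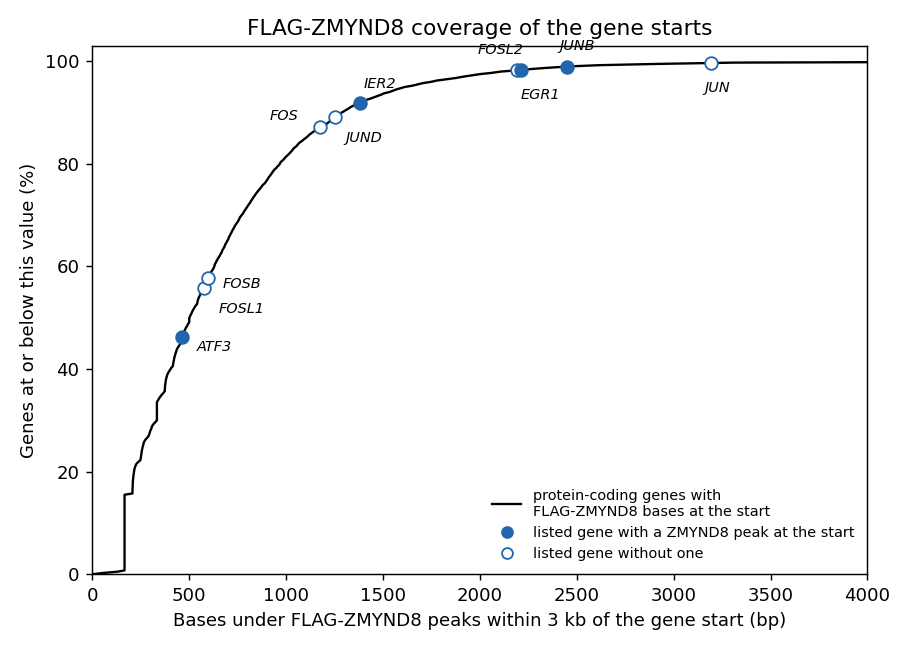
Bases under FLAG-ZMYND8 peaks within 3 kb of the gene start (x axis, bp) against the percent of genes at or below that value (y axis), for protein-coding genes with such bases (line) and the 10 listed genes (points, filled where a ZMYND8 peak lay at the start). JUN at 3194 bp has no ZMYND8 peak, while JUNB at 2448 bp and EGR1 at 2212 bp have one.

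Over all protein-coding genes, ZMYND8 peaks were more frequent where FLAG-ZMYND8 peaks were: 11.3% of genes with no FLAG-ZMYND8 peak at the start had one, 43.8% of those with 1, 56.3% of those with 3 and 60.8% of the 291 genes with at least 5. Each of the 10 listed genes had at least 2 FLAG-ZMYND8 peaks. From 2 peaks upward the share over all genes ran only from 54.8% to 60.8%. So few genes cannot show whether they follow such an order, and their counts are given as description. One of the 2 genes with 2 FLAG-ZMYND8 peaks (ATF3) had a ZMYND8 peak, 1 of the 4 with 3 peaks (IER2), not the 1 with 4 (JUN) and 2 of the 3 with at least 5 (JUNB and EGR1). At JUN's coverage or above stood 40 genes, JUN included, of which 20 had a ZMYND8 peak. This grouping by FLAG-ZMYND8 peaks was chosen after earlier values were seen.

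FOS (chr14:75745529-75748933, plus strand) encodes c-Fos, the founding member of its family and partner of the JUN proteins. It had 3 FLAG-ZMYND8 peaks. The widest, 610 bp, ended 43 bp before the gene start and covered 206 of the 250 promoter bases printed above. Another of 399 bp was centred 1160 bp upstream, also intergenic, and 1 of 167 bp lay 1199 bp downstream in a coding exon. The nearest ZMYND8 peak was 56.2 kb upstream.

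FOSB (chr19:45971253-45978437, plus strand) is known for a truncated splice form that persists in stimulated neurons. Its 3 FLAG-ZMYND8 peaks were narrow. They lay 1548 bp upstream (167 bp, in an intron of the neighbouring DNA repair gene ERCC1), 591 bp downstream (167 bp, untranslated exon) and 1090 bp downstream (265 bp, intron). The upstream peak had a median of 16.5 genome copies per 20-base stretch.

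FOSL1 (chr11:65659520-65668044, minus strand) and FOSL2 (chr2:28615315-28640184, plus strand) encode Fra-1 and Fra-2, FOS relatives that lack its strong transactivation domain. At FOSL1 a 410-bp FLAG-ZMYND8 peak lay in an intron 665 bp downstream of the start, and 1 of 167 bp lay 1287 bp upstream. FOSL2 had 7 peaks, a number matched or exceeded at 0.0846% of protein-coding genes. They ran from 752 bp wide, 1853 bp upstream in an intron of the antisense RNA gene FOSL2-AS1, to 263 bp wide, 2499 bp downstream in an intron of FOSL2. A further 511-bp peak lay in an untranslated exon 1148 bp downstream. FOSL2 therefore stood with JUN, JUNB and EGR1 in FLAG-ZMYND8 bases, although 4 of its 7 peaks had the minimum width. No ZMYND8 peak lay within 50 kb of its start, and the nearest was 65.9 kb upstream.

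JUN (chr1:59242517-59249720, minus strand) encodes c-Jun, which is phosphorylated by the JNK kinases. Its FLAG-ZMYND8 peaks flanked the start closely on both sides. A 1616-bp peak centred 1469 bp downstream, in the coding exon, was among the widest of the list, at rank 249 by width. A 400-bp peak began 64 bp downstream of the start in an untranslated exon. An 879-bp peak upstream came to within 316 bp of it, in noncoding exons of LINC01135 and of a lncRNA without a symbol, and 1 of 299 bp was centred 1570 bp upstream. With a widest peak of 1616 bp, JUN ranked 147 among the 11670 genes with a FLAG-ZMYND8 peak at the start.

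JUNB (chr19:12902300-12904129, plus strand), whose product often opposes c-Jun in proliferation, was the 1 listed gene with a wide ZMYND8 peak at the start. That peak was 852 bp wide and centred 942 bp downstream in the coding exon (chr19:12902816-12903667), at rank 1168 by width. A 1025-bp FLAG-ZMYND8 peak (chr19:12902494-12903518) overlapped it. The other 4 FLAG-ZMYND8 peaks, of 258 to 529 bp, lay in an intron of HOOK2, within which JUNB sits. By its widest ZMYND8 peak, JUNB ranked 922 among the 6856 genes with such a peak at the start.

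JUND (chr19:18390504-18392432, minus strand) encodes the JUN protein that is present in most resting cells. It had a 575-bp FLAG-ZMYND8 peak 732 bp upstream, 1 of 511 bp in the coding exon 1010 bp downstream and 1 of 167 bp beyond the gene's end, 2107 bp downstream.

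ATF3 (chr1:212738676-212794119, plus strand) is a stress-induced bZIP factor of the ATF/CREB family, and the gene of the 10 whose peaks depended most on the choice of start. Its canonical transcript begins 43427 bp downstream of the gene's 5′ end. At the 5′ end lay the repeated-sequence ZMYND8 peak (151 bp, 1366 bp upstream), the FLAG-ZMYND8 peak overlapping it (167 bp, 1390 bp upstream) and a 299-bp FLAG-ZMYND8 peak 1470 bp downstream. At the canonical start lay a FLAG-ZMYND8 peak of 2130 bp, at rank 77 by width. It covered the canonical start and all 250 bases of the promoter printed above, and 98.6% of its 20-base stretches occurred once in the genome. A ZMYND8 peak of 151 bp stood 680 bp downstream of the canonical start, in an intron, with 97.0% of stretches occurring once. Counted from canonical starts, 4 of the 10 genes again had a ZMYND8 peak, beside 35.6% of genes, and 10 a FLAG-ZMYND8 peak, beside 60.3%. Peaks of the lists then overlapped at JUNB only, and FOSL2 had 8 FLAG-ZMYND8 peaks in place of 7.

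**Figure D3:**
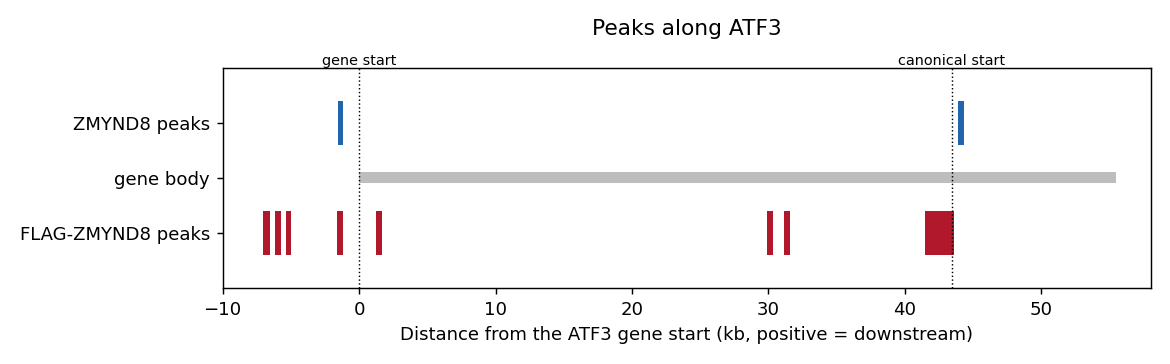
Peaks along ATF3 by distance from the gene start (x axis, kb), with ZMYND8 peaks in blue, FLAG-ZMYND8 peaks in red, the gene body in grey and peaks narrower than 400 bp drawn at 400 bp. The 2130-bp FLAG-ZMYND8 peak reaches over the canonical start, 43427 bp downstream, and a ZMYND8 peak stands at each of the 2 starts.

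EGR1 (chr5:137801168-137804992, plus strand) encodes a zinc finger transcription factor induced by many of the signals that induce FOS. Its 5 FLAG-ZMYND8 peaks included 1 of 1405 bp, at rank 389 by width, centred 1370 bp upstream in a noncoding exon of a lncRNA without a symbol. The peak ended 668 bp before the start, outside the printed promoter with its CArG boxes. The other 4, of 167 to 254 bp, lay downstream in an untranslated exon, an intron and the coding exon. The ZMYND8 peak, of 151 bp and of repeated sequence, was centred 2564 bp upstream and overlapped none of them.

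IER2 (chr19:13261225-13265725, plus strand) encodes a small nuclear protein induced by growth factors. It shares its start region with STX10, a syntaxin of membrane traffic, whose start lies 28 bp upstream on the opposite strand, so that the peaks described here lay within 3 kb of both starts. The ZMYND8 peak (151 bp, 569 bp upstream) lay in an exon of STX10, as did 2 FLAG-ZMYND8 peaks of 167 bp, 781 and 144 bp upstream. On the other side, in an intron annotated for IER2, stood 1 of 1047 bp, centred 705 bp past the start.

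Beyond 3 kb of the start, the bodies of these mostly short genes held few peaks. The median length was 5843 bp, beside 27256 bp over all protein-coding genes. Bodies of 4 of the 10 genes held FLAG-ZMYND8 peaks there, beside 44.6% of genes, with 4 peaks in FOSL1, 3 in ATF3, 2 in IER2 and 1 in FOSL2. ATF3 alone held a ZMYND8 peak there, the 1 near its canonical start, beside 19.0% of genes.

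Within 50 kb of the starts, possible enhancers were sought as distal peaks, meaning peaks more than 3 kb from each of 64486 annotated gene starts. They are possible enhancers by position only, since H3K27ac was not analysed here. FLAG-ZMYND8 had 167 peaks within 50 kb of the 10 starts, 79 of them distal. Of these distal peaks 44 had the minimum width, beside 54.7% of the whole list. Apart from the peak over the canonical start of ATF3, their genome copies were not counted. Each of the 10 genes had at least 3 distal peaks, as had 36.5% of protein-coding genes, while 65.3% had at least 1. The median was 7.50 beside 1.00. JUND had 13, FOSB 11, JUNB and IER2 10 each, FOSL1 8, EGR1 7, FOS and FOSL2 6 each, ATF3 5 and JUN 3. The 5 of ATF3 include the 2130-bp peak over its canonical start. Some distal peaks were also among the body peaks above, at 4041 and 6558 bp downstream in FOSL1 and at 30113 and 31363 bp in ATF3. The number of gene starts within 50 kb, the gene's own included, had a median of 5.50 beside 5.00 but ran from 4 to 11. JUNB with 11, FOSL1 and IER2 with 10 each and JUND with 8 stood above the upper quartile of 7.00 over all genes. JUND, FOSB, JUNB and IER2, which had the most distal peaks, all lie on chromosome 19. The part of neighbouring genes or chromosome in the peak counts was not tested. ZMYND8 had 24 peaks within 50 kb, 11 of them distal, at 6 of the 10 genes, beside 29.8% of genes. With distal set by transcript starts in place of gene starts, the count fell to 3, EGR1, IER2 and JUND, beside 20.3% of genes. By gene starts the 6 were JUND with 3, JUNB, EGR1 and IER2 with 2 each, and FOSB and ATF3 with 1 each, that of ATF3 being the peak near its canonical start.

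**Figure D4:**
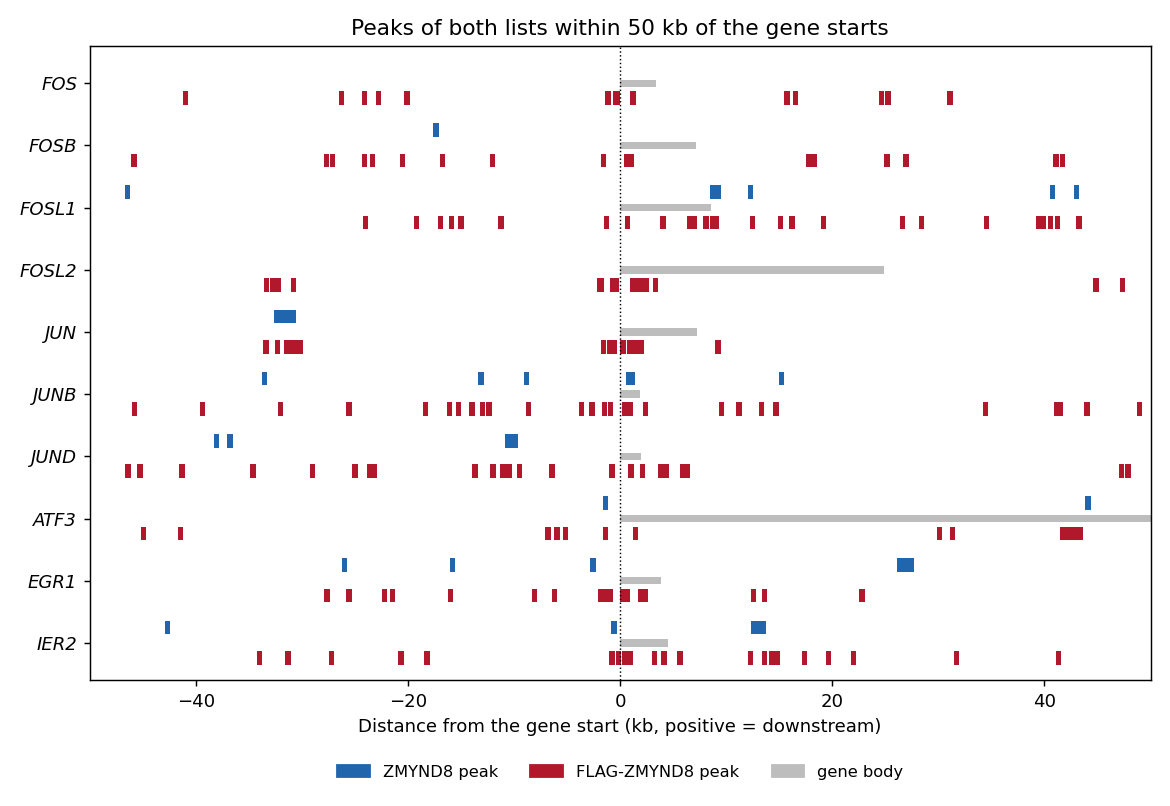
Peaks of ZMYND8 (blue) and FLAG-ZMYND8 (red) within 50 kb of the 10 gene starts, with the distance in kb on the x axis, gene bodies in grey and peaks narrower than 500 bp drawn at 500 bp. FOS and FOSL2 have no blue bar, and the wide blue bars away from the start belong to FOSL1, JUN, JUND, EGR1 and IER2.

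Away from the starts of JUN, JUND, EGR1 and IER2 lay ZMYND8 peaks that FLAG-ZMYND8 peaks overlapped. For JUN and JUND, which had no ZMYND8 peak at the start itself, these were the places near the gene where both lists met. FOSL1 and JUNB also had overlapping peaks away from the start, given further below. The central 200 bases of the widest overlapped peak of JUN, JUND, EGR1 and IER2 are shown. They are written on the strand of the listed gene, with the same motifs in capitals.
JUN, centre of the upstream ZMYND8 peak (chr1:59281237-59281436, minus strand): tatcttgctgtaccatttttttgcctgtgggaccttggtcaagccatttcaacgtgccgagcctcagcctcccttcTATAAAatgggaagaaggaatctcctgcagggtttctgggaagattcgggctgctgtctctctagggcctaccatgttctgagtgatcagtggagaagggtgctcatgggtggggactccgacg
JUND, centre of the upstream ZMYND8 peak (chr19:18402567-18402766, minus strand): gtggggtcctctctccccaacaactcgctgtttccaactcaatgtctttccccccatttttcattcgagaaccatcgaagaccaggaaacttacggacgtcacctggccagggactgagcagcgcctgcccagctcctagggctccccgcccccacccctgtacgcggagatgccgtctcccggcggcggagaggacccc
EGR1, centre of the upstream ZMYND8 peak (chr5:137785286-137785485, plus strand): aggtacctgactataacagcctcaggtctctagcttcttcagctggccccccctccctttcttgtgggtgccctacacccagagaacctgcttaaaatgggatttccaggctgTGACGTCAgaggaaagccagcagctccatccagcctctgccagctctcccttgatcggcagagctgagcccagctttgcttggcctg
IER2, centre of the downstream ZMYND8 peak (chr19:13274148-13274347, plus strand): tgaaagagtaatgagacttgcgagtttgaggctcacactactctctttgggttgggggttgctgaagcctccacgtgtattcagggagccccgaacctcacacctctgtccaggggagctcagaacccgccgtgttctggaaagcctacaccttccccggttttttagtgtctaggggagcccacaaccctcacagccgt
The JUN peak, 2127 bp wide and at rank 104 of the ZMYND8 list, was centred 31616 bp upstream in a noncoding exon of LINC01135. FLAG-ZMYND8 peaks of 1766 and 167 bp overlapped it. It was not counted as distal, because a lncRNA without a symbol starts within 3 kb of it, 29294 bp upstream of JUN. JUN remained the nearest protein-coding start. Its central bases held TATAAA, as did 2.12% of such stretches in the ZMYND8 peaks over 300 bp.

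Upstream of JUND, by 10234 bp, lay an intergenic ZMYND8 peak of 1187 bp, at rank 546, overlapped by a FLAG-ZMYND8 peak of 1101 bp. The other 2 distal ZMYND8 peaks of JUND, each of 151 bp, lay in an intron of LSM4, nearer to the start of that gene. The EGR1 peak 15782 bp upstream was 400 bp wide, overlapped a FLAG-ZMYND8 peak of 414 bp and lay nearest to the start of REEP2. Its central bases held a CRE. Of the central 200 bases of all ZMYND8 peaks over 300 bp, 0.780% held a CRE. EGR1's widest distal ZMYND8 peak, 1666 bp at rank 234, lay 26914 bp downstream with no FLAG-ZMYND8 peak over it. The IER2 peak of 1423 bp, at rank 336, was centred 13022 bp downstream and overlapped FLAG-ZMYND8 peaks of 167 and 502 bp.

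Narrower distal ZMYND8 peaks completed the set. JUNB had 1 of 151 bp 13127 bp upstream, overlapped by a FLAG-ZMYND8 peak of 484 bp, and 1 of 228 bp 33558 bp upstream in a coding exon of BEST2. A 456-bp ZMYND8 peak 8852 bp upstream of JUNB, in an intron of HOOK2, also overlapped FLAG-ZMYND8, but lay within 3 kb of another annotated start and was not distal. FOSB's peak of 151 bp, 17367 bp upstream in an ERCC1 intron, was of repeated sequence, with a median of 232 copies. IER2's other peak, of 151 bp, lay 42660 bp upstream in a coding exon of TRMT1. In all, 4 of the 11 distal ZMYND8 peaks overlapped a FLAG-ZMYND8 peak, or 36.4% beside 25.7% of the list's distal peaks. Of the 79 distal FLAG-ZMYND8 peaks 6 overlapped a ZMYND8 peak, or 7.59% beside 5.17%. The listed gene had the nearest coding start for 5 of the 11 and 46 of the 79.

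FOSL1 had 5 ZMYND8 peaks within 50 kb and none distal, since each lay within 3 kb of another gene's start. The widest, 1026 bp, was centred 925 bp from the start of CCDC85B and 8975 bp downstream of the FOSL1 start, past the end of FOSL1. A FLAG-ZMYND8 peak of 887 bp overlapped it. FLAG-ZMYND8 peaks also overlapped the ZMYND8 peaks 12293, 40745 and 43019 bp downstream, but not the peak 46479 bp upstream. For the genes whose widest distal FLAG-ZMYND8 peak has not been named, that peak was 346 bp at FOSB (16745 bp upstream), 556 bp at FOSL1 (15045 bp upstream), 561 bp at FOSL2 (44837 bp downstream, nearest to PLB1), 213 bp at FOS (24669 bp downstream) and 211 bp at JUN (33388 bp upstream). None of these overlapped a ZMYND8 peak.

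Genes that work with these were counted in the same way. The shares over all protein-coding genes were 58.1% for FLAG-ZMYND8 and 34.1% for ZMYND8. Of 22 other immediate early genes, 21 had a FLAG-ZMYND8 peak at the start and 8 a ZMYND8 peak, or 95.5% and 36.4%. The exception without a FLAG-ZMYND8 peak was EGR4, which had ZMYND8 peaks and is named after its values were seen. Of 15 other bZIP partners of AP-1, 13 had a FLAG-ZMYND8 peak and 7 a ZMYND8 peak, or 86.7% and 46.7%. BATF and CREB5 had neither. Of 15 upstream regulators, the kinases and factors that switch immediate early genes on, 15 had a FLAG-ZMYND8 peak and 8 a ZMYND8 peak, or 100% and 53.3%.

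Coverage of the start was also set side by side. The median FLAG-ZMYND8 coverage was 1317 bp at the listed genes, 958 bp at other immediate early genes, 561 bp at bZIP partners and 436 bp at upstream regulators. ZMYND8 covered more bases than FLAG-ZMYND8 at 0 of the 10 listed genes, 2 of 22 other immediate early genes, 3 of 15 bZIP partners, 4 of 15 upstream regulators and 12.5% of protein-coding genes. That last share takes in genes without FLAG-ZMYND8 coverage, whereas each listed gene had at least 466 bp of it and only 4 had a ZMYND8 peak. The count of 0 is therefore not read as a trait of the listed genes. The 2 widest ZMYND8 peaks of each related list were at BATF3 (2265 bp) and ATF2 (949 bp), bZIP factors, at EGR2 (989 bp) and EGR3 (845 bp), relatives of EGR1, and at the JNK kinase genes MAPK8 (779 bp) and MAPK9 (768 bp).

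**Figure D5:**
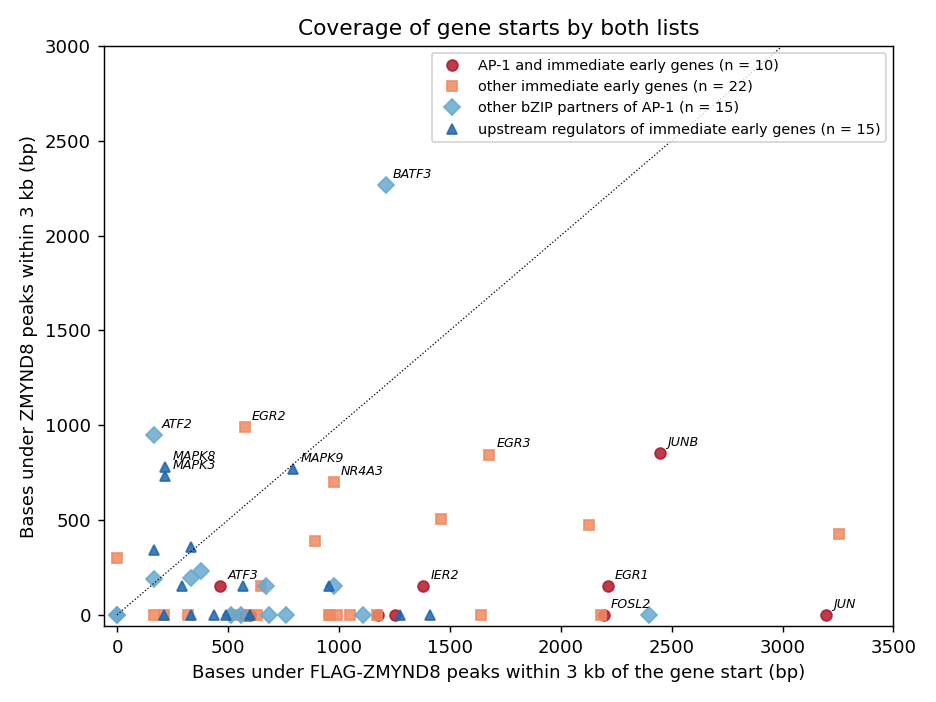
Bases under FLAG-ZMYND8 peaks (x axis, bp) and ZMYND8 peaks (y axis, bp) within 3 kb of the start, 1 point per gene, for the 10 listed genes and the 3 related lists, with the dotted line where both are equal. All 10 listed genes lie under the line, and BATF3, ATF2, EGR2 and MAPK8 lie above it.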

How the data were processed

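Reads were mapped by the authors to hg19 with BWA-MEM (BWA 0.7 in the submitters' processing notes) and processed with HOMER. Peak-calling settings and the way replicates were combined are not given in the sources used here. The deposited score column held 1 in every row of both lists, so positions and widths were used. Peaks were placed against GENCODE release 44 on GRCh37, the hg19 build. Python 3.11.15 was used with numpy 2.4.6, pandas 2.3.3, pysam 0.24.0 and matplotlib 3.10.9. Placement and copy counting were tested on simulated data. Copies of each 20-base stretch were counted exactly, on both strands, in the assembled chromosomes.

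The genes and lists were chosen with earlier results of these data known. Named beside the 10 genes were related genes without a peak at the start, the 2 widest ZMYND8 peaks of each related list, neighbours sharing a start region, and, per gene, the widest distal peak of each list and those shared by the lists. Alternatives changed the window, the start, the peak set, the overlap and the definition of distal. Promoter sequences were read from GRCh37. The RefSeq promoter table, on GRCh38, was not used. The sequences of 2 peaks are not reported here.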

Additional observations from a re-analysis of the deposited data

How the results depend on the processing

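Of the 46 recomputed counts, 30 stayed within 1.5 times the value reported. That tally overstates how much was tested. FLAG-ZMYND8 counts already at 10 of 10 could not rise under wider settings. The counts for ZMYND8 and for both lists named the same genes at each setting. Narrower windows and smaller peak sets can only lower a count, and shares of all protein-coding genes under the same setting follow each count. A 1 kb window left ZMYND8 peaks at 2 genes, IER2 and JUNB (28.5%), both lists at 2 (22.7%) and overlapping peaks at 1, JUNB (17.4%). A 500 bp window left 0 genes for ZMYND8 (21.5%), both lists (14.5%) and overlapping peaks (13.1%), and FLAG-ZMYND8 peaks at 5, EGR1, FOS, FOSL2, IER2 and JUN (37.6%). With peaks wider than the minimum, ZMYND8 peaks (23.0%), both lists (18.2%) and overlapping peaks (14.2%) were each at 1 gene, JUNB. From canonical starts, overlapping peaks were at 1 gene, JUNB (21.3%). Leaving out repeated sequence, chosen after seeing the data, gave 2 genes with ZMYND8 peaks (33.7%), 2 with both lists (29.0%) and 1 with overlapping peaks (20.1%), these shares leaving out repeated ZMYND8 peaks alone. Distal ZMYND8 peaks were at 10 genes within 100 kb (46.6%) and at 3 when distal meant over 3 kb from each transcript start (20.3%). No paired analysis was possible because each target has 1 list. Without depth or scores, no value here has an error, and a gene without a peak may lie under the calling threshold.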
